A study of Mus musculus with 16 samples.

Results

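Glucose uptake and glycolysis were followed through 10 genes of the deposited count table, running from the glucose transporter Slc2a1 through the enzymes Hk1, Hk2, Pfkp, Aldoa, Gapdh, Pgk1, Eno1 and Pkm to the lactate dehydrogenase Ldha. They were chosen by name, as 10 of the table's 55359 rows, and all 10 were among the 10634 genes with enough counts to be tested. The RNA came from frozen sections, 5 µm thick, of the brachiocephalic artery, which leaves the aortic arch and is a common site of plaques in mice with high cholesterol. Sections held the whole vessel, several were combined for each mouse, and 1 ng of the RNA was amplified by Smart-seq2, a full-length poly(A) protocol without molecular identifiers. The 4 groups were Apoe-/-Mif-/- mice after 24 weeks on the diet, Apoe-/- mice after 24 weeks, Apoe-/-Mif-/- mice after 42 weeks and Apoe-/- mice after 42 weeks, with 4 female mice in each. All 16 mice lacked Apoe, the lipoprotein component that clears remnants from the blood. From 6 weeks of age they received Western-type food, in which cholesterol made up 0.2% and fat 21.2%, so that time on the diet and age cannot be told apart. Mif encodes macrophage migration inhibitory factor, an inflammatory cytokine, and the labels give its deletion for the whole animal with no cell type.

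Glycolysis turns glucose into pyruvate in the cytosol. SLC2A1 (GLUT1) lets glucose into the cell, a hexokinase traps it by phosphorylation, phosphofructokinase commits it to the pathway, and the later enzymes, most of them abundant, recover ATP and NADH. Lactate dehydrogenase A turns pyruvate into lactate and restores NAD. In plaques, activated macrophages and cells far from blood flow are known to take up much glucose, and many of these genes are targets of the hypoxia-inducible factors.

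The promoters of Hk2 and Slc2a1 are shown because these genes had the widest range between libraries of the 10. Each is a stretch of 300 bases around the annotated start, on the gene's own strand 5′ to 3′, from RefSeq on build GRCm38.p6. Hk2 lies at chr6:82774405-82774704 on the minus strand and Slc2a1 at chr4:119108495-119108794 on the plus strand. Capitals mark ACGTG or GCGTG, the core letters of the hypoxia response element, searched on both strands, so that a copy on the other strand reads CACGT or CACGC.
Hk2: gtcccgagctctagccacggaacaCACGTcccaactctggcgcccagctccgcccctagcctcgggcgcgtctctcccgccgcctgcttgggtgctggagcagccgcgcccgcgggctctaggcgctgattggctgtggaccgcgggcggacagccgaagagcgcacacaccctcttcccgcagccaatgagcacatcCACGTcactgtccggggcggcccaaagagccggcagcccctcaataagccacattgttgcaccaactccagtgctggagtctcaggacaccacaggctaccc
Slc2a1: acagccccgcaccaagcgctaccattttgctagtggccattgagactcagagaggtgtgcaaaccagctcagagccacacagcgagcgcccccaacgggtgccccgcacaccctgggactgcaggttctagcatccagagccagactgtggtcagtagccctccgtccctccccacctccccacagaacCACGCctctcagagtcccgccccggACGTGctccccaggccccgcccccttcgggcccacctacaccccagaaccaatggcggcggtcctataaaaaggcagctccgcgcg
Hk2 held 2 copies, 226 and 52 bases before its start, and Slc2a1 held 2, at 61 and 36 bases before. All 10 genes were in the promoter table, and 14 of their 17 annotated promoters held a copy, against 43.8% of all 32851 promoters of this length. ACGTG is also part of the E-box CACGTG, and a match of letters shows neither binding nor regulation.

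Library totals ran from 378066 to 8649518 counts, and the 10 genes together took 0.344% (exact Clopper-Pearson 95% interval 0.337 to 0.352) to 0.956% (0.943 to 0.969) of a library. These intervals cover counting error only. Values are given as CPM, library-scaled counts on the usual CPM scale after TMM normalisation, with libraries numbered 1 to 4 within a group as names only. Mif itself was at 5.88 to 19.9 CPM in Apoe-/-Mif-/- arteries and 105 to 177 CPM in Apoe-/- arteries at 24 weeks. At 42 weeks it was at 2.39 to 14.4 CPM in Apoe-/-Mif-/- arteries and 23.2 to 301 CPM in Apoe-/- arteries. The log2 fold change of Mif was -3.46 ± 1.18 (SE) at 24 weeks and -4.11 ± 1.22 at 42 weeks. Its groups did not overlap at either duration, yet neither value reached an adjusted p under 0.05 (edgeR adjusted p = 0.341 and 0.176). Apoe transcripts ran from 2.58 to 1127 CPM over all 16 libraries. Macrophage markers were present in every library, and so were smooth muscle and foam cell markers. Libraries 1 and 4 of the Apoe-/- mice at 24 weeks stood apart, with 13 skeletal muscle markers summing to 5913 and 3111 CPM, against 13 to 471 CPM in the other 14 libraries. Their brown adipocyte markers summed to 15685 and 3549 CPM, the second of which was below the 5114 CPM of library 2 of Apoe-/-Mif-/- at 42 weeks. In library 4 the T and B cell markers also summed to 2520 CPM, against at most 188 CPM in any other library. The column names of the 4 Apoe-/-Mif-/- libraries at 24 weeks carry the letter C and those of the other 12 the letter B, whose meaning the labels do not give, so that letter and group cannot be told apart there. In such bulk samples, fewer cells of a type and less RNA per cell cannot be told apart either.

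**Figure D1:**
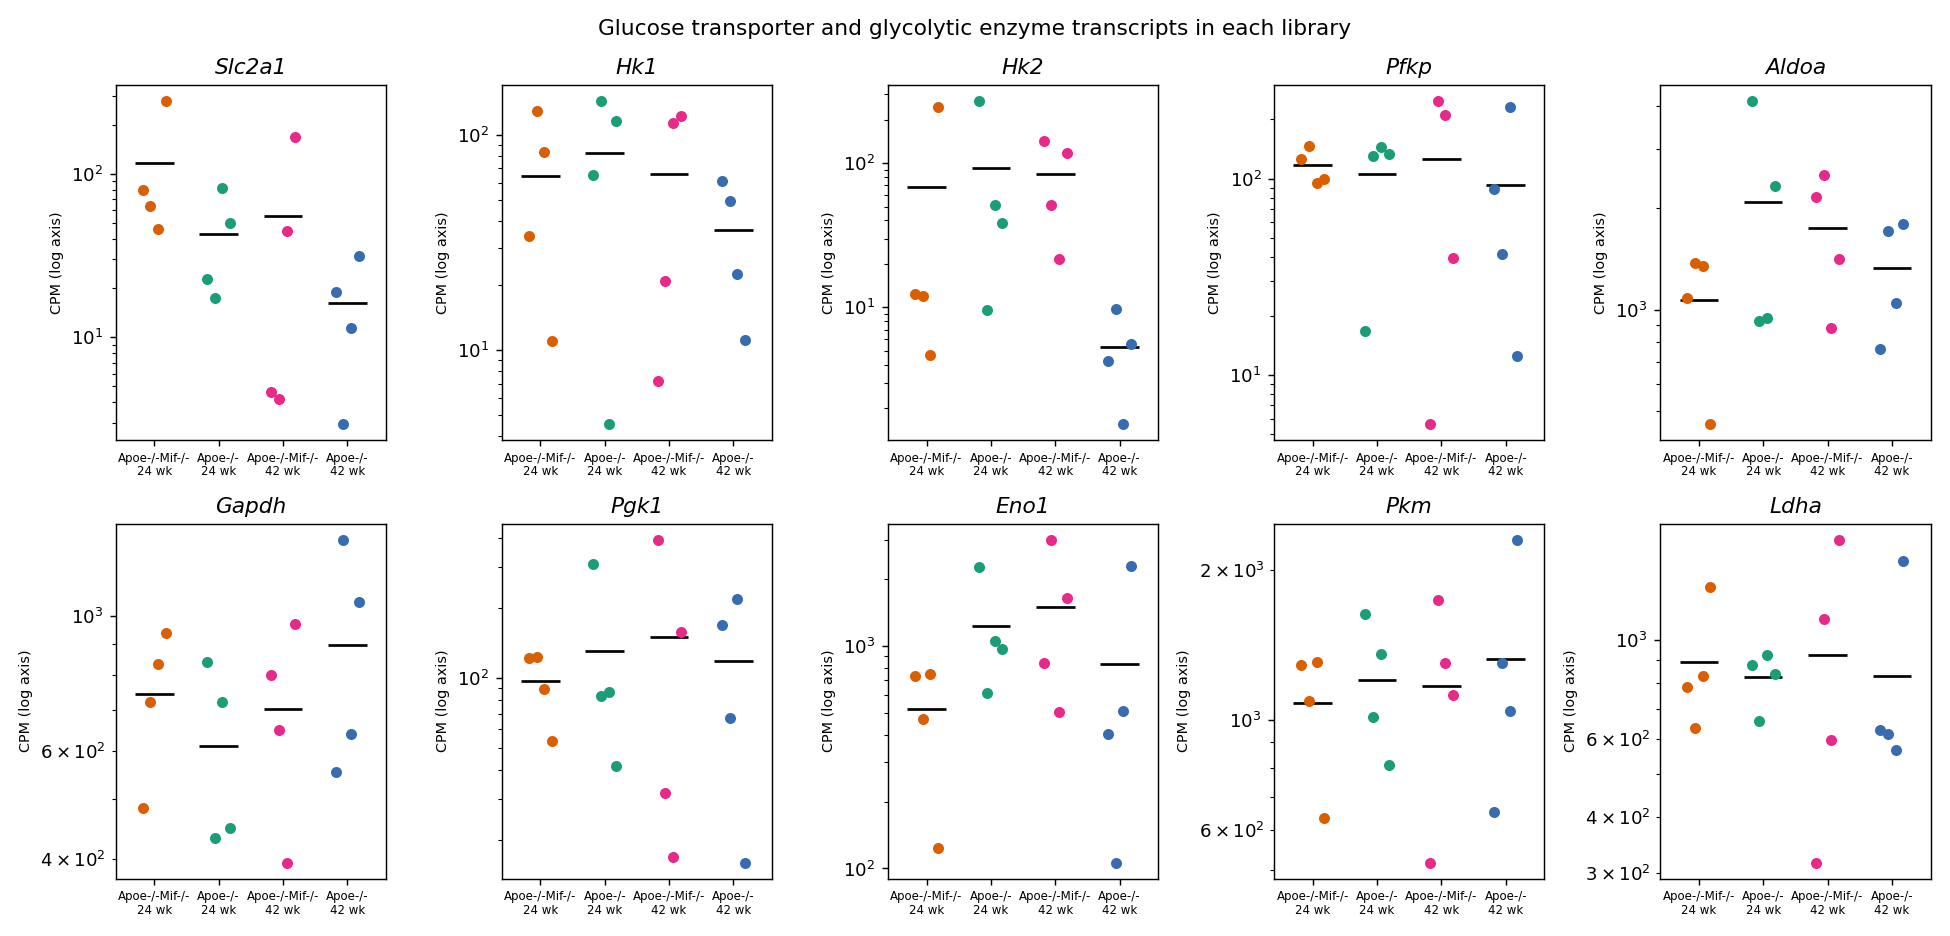
CPM of each gene in each of the 16 libraries (log axes, 1 panel per gene), by group, with points for libraries and a bar for the group's mean (n = 4 mice). Hk2 at 42 weeks is the panel in which 2 groups of the same duration do not overlap: 21.6 to 143 CPM in Apoe-/-Mif-/- and 1.56 to 9.75 CPM in Apoe-/- arteries.

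Slc2a1, the transporter at the entry of the pathway, was among the less abundant and more variable of the 10. At 24 weeks it was at 79.2, 64, 45.9 and 279 CPM in Apoe-/-Mif-/- arteries, against 22.7, 17.4, 82.3 and 50.3 CPM in Apoe-/- arteries. After 42 weeks the values were 4.62, 4.18, 45 and 167 CPM in Apoe-/-Mif-/- arteries, against 19.0, 2.95, 11.4 and 31.4 CPM in Apoe-/- arteries. The groups overlapped at both durations, and the highest library of each Apoe-/-Mif-/- group was library 4. The log2 fold change for Mif deletion was 1.44 ± 1.27 (SE) at 24 weeks and 1.78 ± 1.29 at 42 weeks, and neither passed (edgeR adjusted p = 0.927 and 0.474). Without library 4 of the Apoe-/-Mif-/- mice, these values were as low as 0.49 at 24 weeks and 0.04 at 42 weeks.

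Hexokinase 2, the inducible hexokinase that is prominent in muscle and fat and in activated cells, had the largest difference between 2 groups of the 10 genes. At 42 weeks Hk2 was at 143, 51.5, 21.6 and 118 CPM in Apoe-/-Mif-/- arteries, against 4.22, 9.75, 1.56 and 5.58 CPM in Apoe-/- arteries. Every Apoe-/-Mif-/- library lay above every Apoe-/- library. Of all tested genes, 1.17% had groups that did not overlap in this direction at 42 weeks. The counts behind these values were 279, 37, 90 and 275 in Apoe-/-Mif-/- arteries and 2, 33, 6 and 8 in Apoe-/- arteries. The log2 fold change was 3.97 ± 1.46 (SE; 95% interval 1.02 to 6.91), and it did not pass in edgeR's quasi-likelihood test (adjusted p = 0.184). DESeq2 passed it, with a log2 fold change of 4.28 and an adjusted p of 0.0168. Over all 16 alternative settings, the 8 that left out 1 library included, the log2 fold change lay between 3.40 and 4.59 and the adjusted p between 0.0168 and 0.818.

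At 24 weeks Hk2 showed no such separation. It was at 12.4, 11.9, 4.67 and 244 CPM in Apoe-/-Mif-/- arteries, against 269, 9.62, 51.3 and 38.4 CPM in Apoe-/- arteries. A single library, the fourth of Apoe-/-Mif-/- and the first of Apoe-/-, held most of its group's Hk2. The log2 fold change of -0.43 ± 1.28 did not pass (edgeR adjusted p = 0.983), with a value of -3.34 without the fourth Apoe-/-Mif-/- library and of 1.04 without the first Apoe-/- library. Hk1, the constitutive hexokinase, was at 34.1, 129, 83.4 and 11.1 CPM in Apoe-/-Mif-/- arteries and 65.1, 143, 4.57 and 116 CPM in Apoe-/- arteries at 24 weeks. At 42 weeks it was at 7.19, 20.9, 113 and 122 CPM in Apoe-/-Mif-/- arteries and 61.1, 49.0, 22.6 and 11.2 CPM in Apoe-/- arteries. Hk1 thus overlapped between genotypes at both durations, and Mif deletion gave a log2 value of -0.35 ± 1.22 at 24 and 0.88 ± 1.24 at 42 weeks, neither of which passed (edgeR adjusted p = 0.983 and 0.747).

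Cell type markers and RNA composition also differed between the libraries in which Hk2 was compared. At 42 weeks the 10 white adipocyte markers summed to 441 to 26490 CPM in Apoe-/-Mif-/- and 270 to 12949 CPM in Apoe-/- arteries. The 7 brown adipocyte markers summed to 50.3 to 5114 CPM in Apoe-/-Mif-/- and 150 to 339 CPM in Apoe-/- arteries. The 13 skeletal muscle markers summed to 26.8 to 471 CPM in Apoe-/-Mif-/- and 21.1 to 145 CPM in Apoe-/- arteries. The Apoe-/-Mif-/- library with the least Hk2, library 3, was also the lowest of its group in all 3 of these sums. In Apoe-/- the library with the least Hk2, also library 3, was the lowest for muscle markers and the highest of its group for white (12949 CPM) and brown (339 CPM) adipocyte markers. The Apoe-/-Mif-/- library with the most Hk2, library 1, held 10508 CPM of white adipocyte, 242 CPM of brown adipocyte and 286 CPM of muscle markers. The 8 smooth muscle markers summed to 3689 to 17260 CPM in Apoe-/-Mif-/-, highest in this library, and to 3836 to 10391 CPM in Apoe-/- arteries. At 24 weeks the high library 4 of Apoe-/-Mif-/- held 122 CPM of muscle, 220 CPM of white and 241 CPM of brown adipocyte markers. Mitochondrial transcripts made up 6.01%, 7.30%, 1.94% and 8.64% of counts in the Apoe-/-Mif-/- libraries at 42 weeks, against 2.98%, 1.57%, 1.74% and 3.55% in the Apoe-/- libraries. Foam cell markers, 10 in number, ran from 26818 to 38186 CPM in Apoe-/-Mif-/- and 35645 to 59349 CPM in Apoe-/- arteries. The 6 cartilage-like cell markers summed to 8981, 379, 3160 and 9717 CPM in Apoe-/-Mif-/-, against 1020, 382, 2193 and 2628 CPM in Apoe-/- arteries, and the 2 highest of these were the libraries with the most Hk2. The part of these in the Hk2 difference was not tested. Markers at 0 numbered at most 3 of the 13 for muscle, 1 of the 10 for white and 1 of the 7 for brown fat in an Apoe-/-Mif-/- library at 42 weeks. In an Apoe-/- library they numbered at most 4, 1 and 3.

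**Figure D2:**
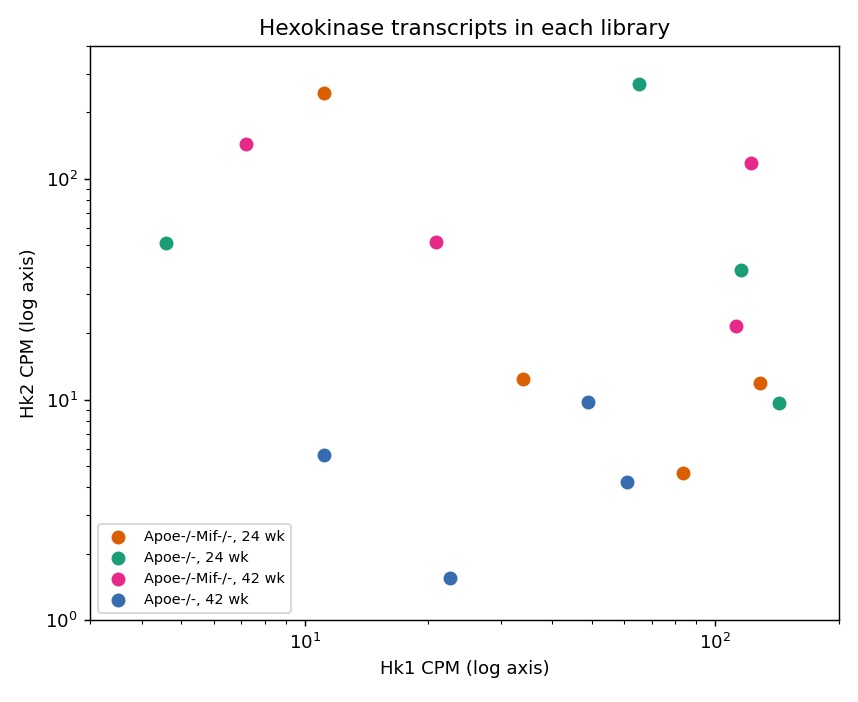
Hk2 CPM against Hk1 CPM in each of the 16 libraries (both axes log), coloured by group. The 4 Apoe-/- libraries at 42 weeks lie at 1.56 to 9.75 CPM on the Hk2 axis, a stretch that also holds library 3 of Apoe-/-Mif-/- (4.67 CPM) and library 2 of Apoe-/- (9.62 CPM) at 24 weeks, while their Hk1 values, 11.2 to 61.1 CPM, lie within the range of the other groups.

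The balance of the 2 hexokinases followed from these values. The log2 ratio of Hk2 to Hk1 counts, not corrected for transcript length and so read only between libraries, was 4.14, 1.26, -2.34 and -0.05 in Apoe-/-Mif-/- arteries at 42 weeks, against -3.57, -2.22, -3.21 and -0.89 in Apoe-/- arteries. The ranges overlapped, since library 3 of Apoe-/-Mif-/- lay below 2 of the Apoe-/- libraries. At 24 weeks the ratio was -1.38, -3.33, -3.90 and 4.34 in Apoe-/-Mif-/- and 2.03, -3.76, 3.23 and -1.57 in Apoe-/- arteries, so both groups held libraries with more counts of either gene.

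Pfkp, the platelet-type phosphofructokinase, was steady in 1 group and very uneven in others. At 24 weeks it was at 126, 147, 94.4 and 99.0 CPM in Apoe-/-Mif-/- arteries, against 16.7, 130, 144 and 133 CPM in Apoe-/- arteries. The values at 42 weeks were 5.65, 248, 210 and 39.6 CPM in Apoe-/-Mif-/- arteries, against 88.5, 41.4, 230 and 12.6 CPM in Apoe-/- arteries. The groups overlapped at both durations. Its log2 fold changes for Mif deletion, 0.14 ± 1.10 and 0.43 ± 1.10, did not pass (edgeR adjusted p = 0.992 and 0.879). The lone low Apoe-/- library at 24 weeks was library 1, which held the most muscle and brown adipocyte markers.

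Aldoa, which splits fructose bisphosphate and is the aldolase of muscle and most other tissues, was the most abundant of the 10. At 24 weeks it was at 1083, 1374, 1344 and 459 CPM in Apoe-/-Mif-/- arteries, against 4151, 922, 947 and 2327 CPM in Apoe-/- arteries. The 2 high Apoe-/- libraries were those with the most muscle markers. The log2 fold change of -0.97 ± 0.59 did not pass (edgeR adjusted p = 0.814), and without these 2 libraries it was 0.17. At 42 weeks Aldoa was at 2154, 2511, 880 and 1417 CPM in Apoe-/-Mif-/- arteries and 763, 1711, 1048 and 1795 CPM in Apoe-/- arteries. These overlapped, with a log2 fold change of 0.39 ± 0.59 (edgeR adjusted p = 0.769).

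Gapdh, which makes the first NADH of the pathway and often serves as a loading control, was the steadiest of the 10. At 24 weeks it was at 485, 723, 834 and 937 CPM in Apoe-/-Mif-/- arteries, against 839, 432, 723 and 449 CPM in Apoe-/- arteries. The 42-week libraries held 801, 649, 394 and 968 CPM in Apoe-/-Mif-/- arteries, against 554, 1331, 640 and 1053 CPM in Apoe-/- arteries. The 4 groups shared most of their range. The log2 fold changes for Mif deletion were 0.29 ± 0.62 (95% interval -0.97 to 1.55) and -0.35 ± 0.62 (-1.61 to 0.91), with edgeR adjusted p = 0.976 and 0.815. Pgk1, the next enzyme and the first to yield ATP, varied far more. It was at 122, 123, 89.1 and 53.7 CPM in Apoe-/-Mif-/- and 307, 83.4, 86.6 and 41.9 CPM in Apoe-/- arteries at 24 weeks. The later values were 391, 32.0, 17.0 and 157 CPM in Apoe-/-Mif-/- and 169, 67.1, 219 and 16 CPM in Apoe-/- arteries. No group was set apart for Pgk1, and its log2 differences, -0.42 ± 1.06 at 24 and 0.35 ± 1.06 at 42 weeks, did not pass (edgeR adjusted p = 0.982 and 0.9).

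Eno1, the ubiquitous enolase, had the widest range of the 5 abundant enzymes. At 24 weeks it was at 731, 470, 750 and 124 CPM in Apoe-/-Mif-/- arteries, against 2267, 614, 1050 and 968 CPM in Apoe-/- arteries. Later, at 42 weeks, it was at 838, 3003, 503 and 1640 CPM in Apoe-/-Mif-/- arteries, against 400, 106, 508 and 2291 CPM in Apoe-/- arteries. At 24 weeks 2 of the Apoe-/-Mif-/- libraries exceeded the lowest Apoe-/- library, so the groups overlapped by little, and at 42 weeks they overlapped widely. The log2 fold change was -1.24 ± 0.75 at 24 weeks (95% interval -2.76 to 0.28) and 0.86 ± 0.75 at 42 weeks (-0.65 to 2.36), and neither passed (edgeR adjusted p = 0.811 and 0.57).

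Pkm, the pyruvate kinase gene whose M1 and M2 splice forms are counted together here, was at 1287, 1093, 1303 and 634 CPM in Apoe-/-Mif-/- arteries and 1628, 1011, 1358 and 811 CPM in Apoe-/- arteries at 24 weeks. Pkm at 42 weeks was at 517, 1740, 1297 and 1123 CPM in Apoe-/-Mif-/- arteries, against 653, 1297, 1039 and 2297 CPM in Apoe-/- arteries. The groups overlapped at both durations. Ldha, which makes lactate, was at 785, 635, 829 and 1315 CPM in Apoe-/-Mif-/- arteries and 878, 658, 926 and 838 CPM in Apoe-/- arteries at 24 weeks. Ldha at 42 weeks was at 317, 1111, 598 and 1676 CPM in Apoe-/-Mif-/- arteries, against 628, 614, 566 and 1503 CPM in Apoe-/- arteries. Both genes differed between the groups by less than the spread between mice. Their 95% intervals for Mif deletion reached from -1.34 to 1.03 at 24 weeks and -1.36 to 1.00 at 42 weeks for Pkm, and from -1.16 to 1.38 and -1.11 to 1.43 for Ldha (edgeR adjusted p 0.908 to 0.987).

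Set per kilobase of the longest protein-coding transcript in the GENCODE M21 annotation, the levels could be ordered between genes. Over the 16 libraries the median level was 877 CPM per kb for Aldoa, 509 for Gapdh, 495 for Pkm, 445 for Ldha and 365 for Eno1. Their ranges overlapped, so these 5 neighbours are not clearly ordered. Pgk1 followed at a median of 48.1 CPM per kb, then Pfkp at 27.2, Hk1 at 12.9, Slc2a1 at 11.7 and Hk2 at 3.08. Other enzymes of the pathway did not follow the order of the steps, with Gpi1, an early step, at a median of 148 CPM per kb and Pgam1, a late one, at 47.9. The single libraries of Pgk1, 8.79 to 214 CPM per kb, overlapped those of all 4 entry genes.

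The deletion of Mif at 24 weeks moved none of the 10 genes past the test. None passed at an adjusted p under 0.05 in edgeR, against 0.047% of all tested genes, and none had an unadjusted p under 0.05, against 7.33% of all. DESeq2 also called none of the 10, against 2.19% of the genes to which it gave an adjusted p. The fold change was above 0 for 4 and below 0 for 6, where 45.1% of all tested genes lay above, with a median log2 of -0.25 against -0.18 over all tested genes. At 42 weeks none passed in edgeR either, against 0% of all tested genes, while DESeq2 called Hk2 alone, 1 of 10 against 9.94% of all genes with an adjusted p there. Hk2 was the single gene with an unadjusted p under 0.05, where 17.3% of all tested genes had one, so both counts are near or below the background. The fold change was above 0 for 8 and below 0 for 2, Gapdh and Pkm, where 51.8% of all tested genes lay above, with a median log2 of 0.41 against 0.09 over all genes. Scaling shifted this split to 9 and 1 with DESeq2 size factors and to 6 and 4 with library totals alone, where the median over all genes was 0.28 and -0.08.

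**Figure D3:**
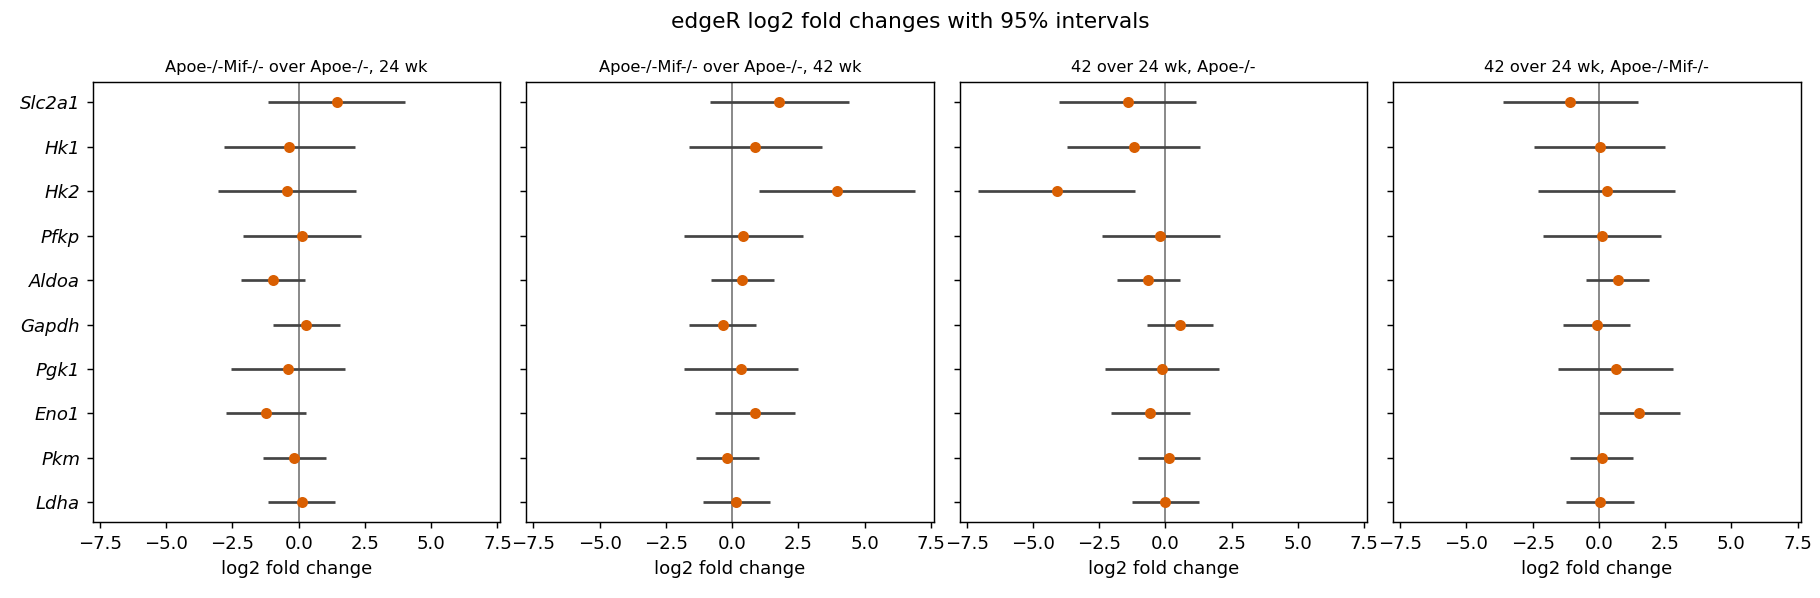
log2 fold changes from edgeR (x axes) for the 10 genes (rows) in the 4 comparisons of 2 groups, with 95% intervals as bars. The intervals of Hk2 in the panels for Mif deletion at 42 weeks (1.02 to 6.91) and for 42 over 24 weeks in Apoe-/- (-7.07 to -1.14) are the ones of these panels that clearly leave out 0, without adjustment over genes.

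Longer diet in Apoe-/- mice came with lower Hk2 counts that did not pass in edgeR. Hk2 averaged 5.28 ± 3.42 CPM at 42 weeks and 92.1 ± 119 CPM at 24 weeks (SD, n = 4 each), and the groups overlapped narrowly, at 9.75 CPM for the highest library at 42 weeks and 9.62 CPM for the lowest at 24 weeks. The log2 fold change was -4.10 ± 1.46 (edgeR adjusted p = 0.322, 0.0461 in DESeq2, which called 4.01% of all genes with an adjusted p). It was -2.63 without library 1 at 24 weeks and -2.55 without both libraries with the most muscle markers, which was added after seeing the data. None of the 10 passed in edgeR, against 0% of all tested genes, and Hk2 alone had an unadjusted p under 0.05, against 12.2% of all. Slc2a1 averaged 16.2 ± 12.1 CPM at 42 weeks and 43.2 ± 29.8 CPM at 24 weeks, a log2 fold change of -1.43 ± 1.28 (edgeR adjusted p = 0.695). The log2 value was -1.20 ± 1.24 for Hk1, -0.65 ± 0.59 for Aldoa and 0.55 ± 0.62 for Gapdh, with edgeR adjusted p of 0.742, 0.698 and 0.766. For Pfkp, Pgk1, Eno1, Pkm and Ldha the values lay between -0.57 and 0.14. In all, 3 lay above 0 and 7 below, where 47.3% of all tested genes lay above, with a median of -0.38 against -0.12 for all genes. With library totals alone 1 lay above 0 and 9 below, where the median of all genes was -0.355. DESeq2 size factors gave 4 and 6, with a median of -0.0283 for the 10 and 0.155 for all genes.

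In Apoe-/-Mif-/- mice the longer diet gave no call among the 10, against 0.122% of all tested genes, and none had an unadjusted p under 0.05, against 13.1% of all. DESeq2 also called none, against 6.2% of all genes with an adjusted p. Eno1 came nearest, at 1496 ± 1112 CPM after 42 weeks and 519 ± 293 CPM after 24 weeks (SD, n = 4 each), with a log2 fold change of 1.53 ± 0.76 (edgeR adjusted p = 0.383). Hk2 averaged 83.7 ± 56.7 CPM at 42 weeks and 68.3 ± 117 CPM at 24 weeks, a log2 fold change of 0.29 ± 1.28 (edgeR adjusted p = 0.948) that was 3.33 without library 4 at 24 weeks. Slc2a1 averaged 55.3 ± 77.1 CPM at 42 weeks and 117 ± 109 CPM at 24 weeks, with a log2 fold change of -1.08 ± 1.26 (edgeR adjusted p = 0.749). The log2 value was 0.71 ± 0.59 for Aldoa and 0.63 ± 1.07 for Pgk1 (edgeR adjusted p = 0.629 and 0.845), and the other 5 lay between -0.08 and 0.12. Of the 10, 8 lay above 0 and 2 below, where 52.9% of all tested genes lay above, which became 3 and 7 with library totals alone, where the median of all genes was -0.27, against 0.12 with TMM, and 9 and 1 with DESeq2 size factors, where it was 0.54.

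Averaged over both durations, Hk2 and Slc2a1 had the largest differences with Mif deletion, at log2 1.77 ± 0.94 and 1.61 ± 0.91, and did not pass (edgeR adjusted p = 0.428 and 0.461). The lowest was Aldoa at -0.29 ± 0.41. None of the 10 passed, against 0% of all tested genes, none had an unadjusted p under 0.05, against 13% of all, and 5 lay on each side of 0, where 48.1% of all tested genes lay above. For 42 against 24 weeks averaged over both genotypes the lowest was Hk2 at -1.90 ± 0.94 (edgeR adjusted p = 0.367), followed by Slc2a1 at -1.25 ± 0.90, and the highest was Eno1 at 0.48 ± 0.52. Again none of the 10 passed, against 0.0376% of all tested genes, and none had an unadjusted p under 0.05, against 13.6%. Of the 10, 6 lay above 0, where 50.3% of all tested genes did. With library totals alone 1 lay above 0 and 9 below, where the median of all genes was -0.325, and with DESeq2 size factors 7 and 3, where it was 0.355. The split for Mif deletion became 4 above and 6 below with library totals and 7 and 3 with size factors. DESeq2 called none of the 10 in either averaged comparison. Of the genes to which it gave an adjusted p, it called 4.32% for Mif deletion and 5.25% for duration. With voom or on the variance-stabilised values, limma called none of the 10 in any comparison. It called no other gene in any comparison either, so its result is not particular to the 10.

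Whether the genotype difference itself changed with time was asked by the interaction, the log2 fold change for Mif deletion at 42 weeks minus that at 24 weeks. None of the 10 passed, in edgeR or in DESeq2, against 0.686% of all tested genes in edgeR and 5.89% of those with an adjusted p in DESeq2. Hk2 had the highest value, 4.40 ± 1.90 (edgeR adjusted p = 0.276), and was the 1 gene of the 10 with an unadjusted p under 0.05, against 14.2% of all. Leaving out 1 library gave 2.90, without library 1 of the Apoe-/- mice at 24 weeks, to 7.41, without library 4 of the Apoe-/-Mif-/- mice at 24 weeks. Eno1 followed at 2.09 ± 1.06 (edgeR adjusted p = 0.363), with the opposite signs at the 2 durations given above. The lowest was Gapdh at -0.63 ± 0.88. In all, 8 of the 10 lay above 0, where 54% of all tested genes did, and 7 with DESeq2 size factors or 6 with library totals alone. The effect of Mif deletion was therefore not shown to differ between 24 and 42 weeks for Hk2 or Eno1.

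The 10 genes differed strongly in how much they varied between mice. The SD of log2 CPM over the 16 libraries was 0.50 for Gapdh, 0.57 for Pkm and 0.60 for Ldha. Of the 10634 tested genes, 14 varied less than Gapdh, 29 less than Pkm and 43 less than Ldha. Level alone goes with low spread, so the 202 genes with a mean log2 CPM of at least 9 were also compared. Their median SD was 0.89, and 6, 15 and 23 of them varied less than Gapdh, Pkm and Ldha. Aldoa, at 0.78, had 71 of the 202 below it, and Eno1, at 1.35, had 185. Hk2 had an SD of 2.14, Slc2a1 1.80, Hk1 1.58, Pfkp 1.57 and Pgk1 1.33, against a median of 1.96 over all tested genes. From lowest to highest library the CPM of Hk2 spanned 173-fold and that of Slc2a1 94.6-fold, and that of Gapdh 3.38-fold.

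**Figure D4:**
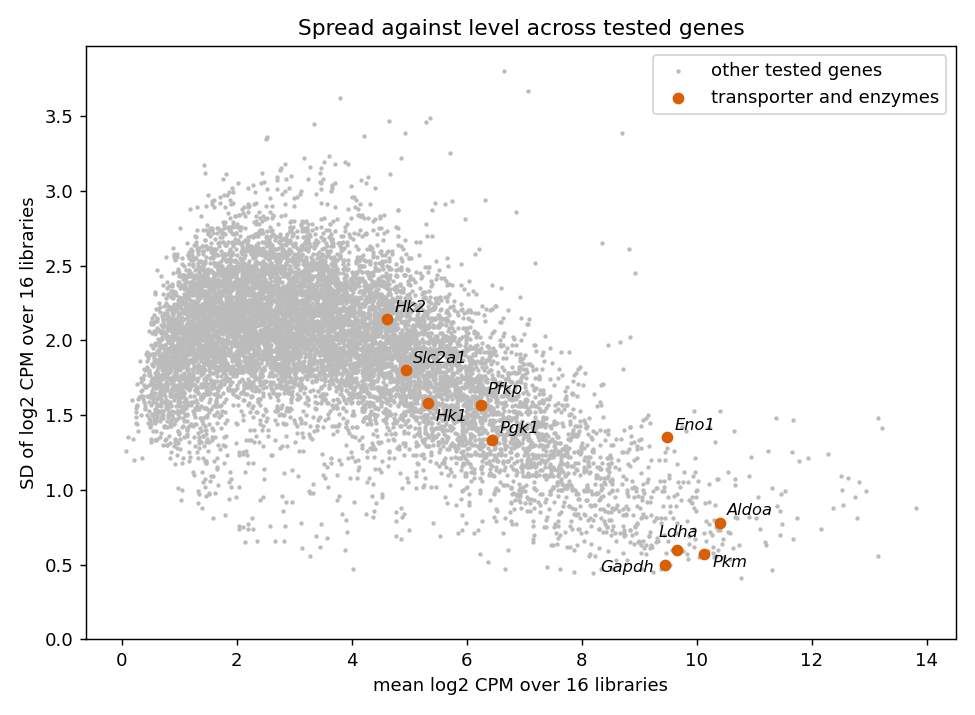
SD of log2 CPM over the 16 libraries (y axis) against mean log2 CPM (x axis) for all 10634 tested genes, with the 10 genes in orange. Gapdh, Pkm and Ldha lie at the lower edge of the genes of their level with SDs of 0.50 to 0.60, Eno1 lies near the upper edge at 1.35, and Hk2 lies highest of the 10 at 2.14.

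The 10 genes did not vary as a block between mice. Over the 45 pairs the median Pearson correlation of log2 CPM across 16 libraries was 0.05, and 24 pairs were above 0. Pairs of tested genes in the same range of mean level had a median of 0.03 and were above 0 in 54%. The highest were Aldoa with Eno1 at 0.62, Slc2a1 with Ldha at 0.56 and Eno1 with Pkm at 0.51. The lowest was Pfkp with Gapdh at -0.57. All libraries share the scaling between genes, and the values are descriptions over 16 mice of 4 groups. Against the mean of the other 9 genes, r ran from -0.26 for Pfkp to 0.45 for Ldha, with 0.21 for Eno1 the next highest. The tested genes outside the 10 whose log2 CPM was most like their mean were Dcps and Dnajc17 at an r of 0.88, and Ddx20, Cox4i2 and Eif2b4 at 0.85, over 16 libraries.

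**Figure D5:**
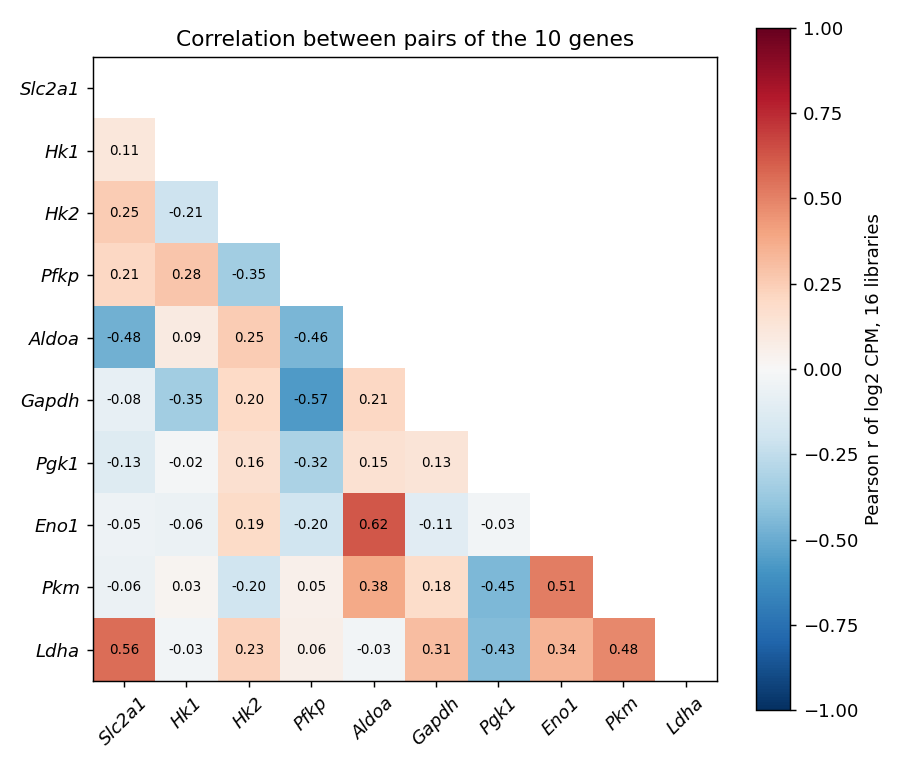
Pearson correlation of log2 CPM over the 16 libraries for each of the 45 pairs of the 10 genes, in the order of the pathway, with the value in each cell. Positive and negative cells are mixed, from -0.57 for Pfkp with Gapdh to 0.62 for Aldoa with Eno1.

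Library 4 of the Apoe-/-Mif-/- mice at 24 weeks illustrated this lack of common movement. Within its group it was the highest for Slc2a1, Hk2, Gapdh and Ldha and the lowest for Hk1, Aldoa, Pgk1, Eno1 and Pkm. Library 1 of the Apoe-/- mice at 24 weeks was the highest of its group for Hk2, Aldoa, Gapdh, Pgk1, Eno1 and Pkm and the lowest for Pfkp. Mitochondrial transcripts took 3.06% of counts in the first of these libraries and 10.2% in the second.

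Some of the counts could not be tied to 1 gene with certainty. Of the stretches of 100 bases, the read length, in the reference transcript of Gapdh, 78% also occurred in transcripts of other genes, mostly pseudogenes, and the share was 67% for Pgk1, 59% for Eno1, 16% for Pfkp and 9.82% for Pkm. It was 0% for Hk2 and Aldoa, 0.19% for Slc2a1, 1.28% for Ldha and 1.39% for Hk1, which overlaps Hk1os. The genes sharing stretches with Gapdh held 5477 counts in the table beside 37352 of Gapdh, and those sharing with Pfkp held 1025 beside 6383. How shared reads were counted is not given in the sources used here, and the protocol keeps no strand, so Gapdh, Pgk1, Eno1 and Pfkp are the less certain values.

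The other enzymes and transporters of the pathway, 24 genes of which 16 were tested, gave no call in edgeR in any comparison, with 0.047%, 0%, 0% and 0.122% of all genes called in the 4 comparisons of 2 groups. At an unadjusted p under 0.05, 1 was higher and 2 were lower with Mif deletion at each duration, 4 were lower at 42 weeks in Apoe-/-, and 1 was higher and 1 lower at 42 weeks in Apoe-/-Mif-/- mice, where 7.33%, 17.3%, 12.2% and 13.1% of all tested genes passed in either direction. Of all genes with an adjusted p, DESeq2 called 2.19%, 9.94%, 4.01% and 6.2% in these comparisons. Among the pathway genes it called none for Mif deletion at 24 weeks, Slc2a6 at 42 weeks, Slc2a6 and Pgam2 over time in Apoe-/-, and Slc2a3 and Slc2a4 over time in Apoe-/-Mif-/- mice. For Mif deletion at 42 weeks the smallest p belonged to Slc2a6, a hexose transporter of phagocytes, with 3, 1, 82 and 30 counts in Apoe-/-Mif-/- and 0, 1, 0 and 0 in Apoe-/- arteries (edgeR adjusted p = 0.176). It was followed by triosephosphate isomerase Tpi1, at 199 ± 79.8 CPM in Apoe-/-Mif-/- and 698 ± 322 CPM in Apoe-/- arteries (log2 fold change -1.81 ± 0.73, edgeR adjusted p = 0.207). The 4 Tpi1 libraries of Apoe-/-Mif-/-, 131 to 291 CPM, just overlapped those of Apoe-/-, 291 to 1049 CPM. Slc2a4, the insulin-dependent transporter of muscle and fat, was at 11.9 ± 10.1 CPM in Apoe-/-Mif-/- and 131 ± 187 CPM in Apoe-/- arteries at 24 weeks (log2 fold change -3.46 ± 1.45, edgeR adjusted p = 0.533). Slc2a3, GLUT3, was at 51.7 ± 66.7 CPM in Apoe-/-Mif-/- and 2.5 ± 2.58 CPM in Apoe-/- arteries at 24 weeks (4.34 ± 1.90, edgeR adjusted p = 0.596).
Over time, Slc2a3 in Apoe-/-Mif-/- mice was at 0.257 ± 0.514 CPM at 42 weeks and 51.7 ± 66.7 CPM at 24 weeks (edgeR adjusted p = 0.182), and Slc2a4 at 163 ± 154 CPM at 42 weeks and 11.9 ± 10.1 CPM at 24 weeks (edgeR adjusted p = 0.276). In Apoe-/- mice Pgam2, the muscle phosphoglycerate mutase, was at 7.91 ± 4.56 CPM at 42 weeks and 142 ± 188 CPM at 24 weeks (edgeR adjusted p = 0.322). Slc2a6 was at 0.0739 ± 0.148 CPM at 42 weeks and 8.77 ± 12.1 CPM at 24 weeks in the same mice, with the same adjusted p of 0.322.

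Regulators of glycolysis and pyruvate and lactate transport, 20 genes of which 19 were tested, also gave no call in edgeR in any comparison. Of all tested genes, edgeR called 0.047%, 0%, 0% and 0.122% in the 4 comparisons of 2 groups, and 0.686% in the interaction. At an unadjusted p under 0.05, 3 were lower with Mif deletion at 24 weeks and 5 higher at 42 weeks, 5 were lower over time in Apoe-/- and 5 higher over time in Apoe-/-Mif-/- mice, where 7.33%, 17.3%, 12.2% and 13.1% of all tested genes passed in either direction. DESeq2 called 1 of 17 with an adjusted p for Mif deletion at 24 weeks (2.19% of all genes) and 2 of 16 at 42 weeks (9.94%). Over time it called 4 of 16 in Apoe-/- (4.01%) and 5 of 16 in Apoe-/-Mif-/- mice (6.2%). At 24 weeks 1 had a fold change above 0 for Mif deletion and 18 below, with a median log2 of -1.27 against -0.18 for all genes. At 42 weeks 14 lay above and 5 below, with a median of 1.32 against 0.09. In the interaction 16 lay above 0 and 3 below, with a median log2 of 1.96 against 0.26 for all genes. There 8 were higher at an unadjusted p under 0.05, against 14.2% of all tested genes in either direction. DESeq2 called 5 of 16 there, Pfkfb1, Slc16a1, Pdha1, Pdhb and Myc, against 5.89% of all genes with an adjusted p. The Apoe-/- libraries 1 and 4 at 24 weeks carry the muscle and fat markers given above. Their part in the 24-week split and in the interaction was not tested. At 24 weeks the smallest p belonged to Pfkfb1, a phosphofructokinase-2 isoform of liver and muscle, at 0.0513 ± 0.103 CPM in Apoe-/-Mif-/- and 9.39 ± 10.6 CPM in Apoe-/- arteries (edgeR adjusted p = 0.295). Mpc2, a subunit of the mitochondrial pyruvate carrier, was at 50.1 ± 9.93 CPM in Apoe-/-Mif-/- and 335 ± 405 CPM in Apoe-/- arteries (log2 fold change -2.74 ± 0.95, edgeR adjusted p = 0.344). At 42 weeks Myc, a transcription factor that drives glycolytic genes, was at 88.5 ± 143 CPM in Apoe-/-Mif-/- and 1.55 ± 1.63 CPM in Apoe-/- arteries (edgeR adjusted p = 0.176), and Pdk4, which shuts pyruvate out of the citric acid cycle, at 22.6 ± 44.4 CPM in Apoe-/-Mif-/- and 0.313 ± 0.288 CPM in Apoe-/- arteries (edgeR adjusted p = 0.206).
Over time in Apoe-/- mice, Myc was at 1.55 ± 1.63 CPM at 42 weeks and 87.3 ± 151 CPM at 24 weeks, and the lactate transporter Slc16a1 at 0.96 ± 0.701 CPM at 42 weeks and 26.9 ± 29.5 CPM at 24 weeks (edgeR adjusted p = 0.322 for each). In Apoe-/-Mif-/- mice Txnip, which restrains glucose uptake, was at 1291 ± 1132 CPM at 42 weeks and 184 ± 56.3 CPM at 24 weeks. Its log2 fold change of 2.81 ± 0.80 did not pass (edgeR adjusted p = 0.158). Pfkfb1 was at 12.3 ± 12.6 CPM at 42 weeks and 0.0513 ± 0.103 CPM at 24 weeks in these mice (edgeR adjusted p = 0.183).

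Among the 14 genes of the pentose phosphate and gluconeogenic steps, 12 of them tested, Pck1 passed in the interaction. It was 1 call of 12 there in edgeR, against 0.686% of all tested genes. Pck1 encodes the cytosolic phosphoenolpyruvate carboxykinase of gluconeogenesis, which fat uses to make glycerol. It was at 0.655, 2.26, 19.9 and 3.24 CPM in Apoe-/-Mif-/- and 2136, 3.04, 11.8 and 195 CPM in Apoe-/- arteries at 24 weeks. At 42 weeks it was at 708, 506, 3.11 and 10.3 CPM in Apoe-/-Mif-/- and 10.5, 91.6, 139 and 22.3 CPM in Apoe-/- arteries. The 4 highest libraries were libraries 1 and 4 of Apoe-/- at 24 weeks and 1 and 2 of Apoe-/-Mif-/- at 42 weeks. Their 10 white adipocyte markers summed to 22286, 6414, 10508 and 26490 CPM. At 42 weeks these markers also summed to 12949 and 6918 CPM in libraries 3 and 4 of Apoe-/-, where Pck1 was at 139 and 22.3 CPM. In library 4 of Apoe-/-Mif-/- at 42 weeks they summed to 7012 CPM, with Pck1 at 10.3 CPM. The part of these cells in the interaction was not tested. The interaction was 8.67 ± 2.11 on the log2 scale (edgeR adjusted p = 0.0452), while in edgeR neither duration passed by itself with all libraries and the filter. For Mif deletion at 24 weeks Pck1 was at a log2 value of -6.46 (edgeR adjusted p = 0.161), which passed without the filter (-6.38, edgeR adjusted p = 0.000428), without library 2 of Apoe-/- (-6.86, 0.0442) and in DESeq2 (-6.86, 0.00151). Over time in Apoe-/-Mif-/- mice it was 5.52 (edgeR adjusted p = 0.158), which passed without the filter (5.58, 0.00128) and in DESeq2 (6.57, 0.0011). The interaction was 5.52 without library 1 of Apoe-/- at 24 weeks (edgeR adjusted p = 0.209), and it lost its call in 10 of the 16 fits that left out 1 library, with library totals alone and with both limma fits.
In the comparisons of 2 groups DESeq2 called, other than Pck1, Pcx for Mif deletion at 24 weeks, Rpia, Fbp2 and G6pc3 at 42 weeks, and G6pc3 over time in Apoe-/-Mif-/- mice. With Pck1 included, these were 2 of 12 at 24 weeks (2.19% of all genes with an adjusted p) and 3 of 12 at 42 weeks (9.94%). Over time they were 2 of 12 in Apoe-/-Mif-/- mice (6.2%) and 0 of 12 in Apoe-/- mice (4.01%). Pyruvate carboxylase Pcx was at 3.36 ± 4.31 CPM in Apoe-/-Mif-/- and 105 ± 166 CPM in Apoe-/- arteries at 24 weeks (edgeR adjusted p = 0.291). G6pc3, the ubiquitous glucose-6-phosphatase, was at 429 ± 439 CPM in Apoe-/-Mif-/- and 18.4 ± 9.79 CPM in Apoe-/- arteries at 42 weeks (edgeR adjusted p = 0.176). Fbp2, the muscle fructose bisphosphatase, was at 10.7 ± 11.3 CPM in Apoe-/-Mif-/- arteries and had no count in the Apoe-/- arteries at 42 weeks (edgeR adjusted p = 0.176). In Apoe-/- mice G6pdx, the entry enzyme of the pentose phosphate pathway, was at 544 ± 570 CPM at 42 weeks and 98.3 ± 60.7 CPM at 24 weeks (log2 fold change 2.47 ± 1.10, edgeR adjusted p = 0.358).

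Hypoxia-induced genes outside glycolysis, 19 of which 17 were tested, gave no call in edgeR in any comparison. The share of all tested genes called by edgeR was 0.047%, 0%, 0% and 0.122% in the 4 comparisons of 2 groups and 0.686% in the interaction. At an unadjusted p under 0.05, 0 differed with Mif deletion at 24 weeks, against 7.33% of all tested genes in either direction. At 42 weeks 1 was higher and 2 were lower, against 17.3% of all. Over time 2 were lower in Apoe-/- mice (12.2% of all), and 1 was higher and 1 lower in Apoe-/-Mif-/- mice (13.1%). DESeq2 called Kdm3a for Mif deletion at 42 weeks, 1 of 14 against 9.94% of all genes with an adjusted p. It called no other gene of these in any comparison. For Mif deletion at 42 weeks 9 lay above 0 and 8 below, with a median log2 of 0.22 against 0.09 over all genes, and at 24 weeks 7 lay above and 10 below, with a median of -0.37. Ndrg1, a stress-induced gene, was at 43.0 ± 23.5 CPM in Apoe-/-Mif-/- and 213 ± 91.9 CPM in Apoe-/- arteries at 42 weeks (log2 fold change -2.30 ± 1.08, edgeR adjusted p = 0.268). Kdm3a, a histone demethylase, was at 22.5 ± 30.8 CPM in Apoe-/-Mif-/- and 1.54 ± 0.667 CPM in Apoe-/- arteries (edgeR adjusted p = 0.259). At 24 weeks the smallest p belonged to Adm, which encodes adrenomedullin, at a log2 fold change of -3.35 ± 1.89 (edgeR adjusted p = 0.773). Over time in Apoe-/- mice the log2 value was -5.70 ± 2.29 for Egln3, an oxygen-sensing prolyl hydroxylase, and -4.30 ± 1.90 for Ero1a, a disulfide oxidase (edgeR adjusted p = 0.33 and 0.357). Leaving out 1 library gave -6.1 to -0.86 for Egln3 and -5.4 to -0.9 for Ero1a. In Apoe-/- at 24 weeks the highest library held 235 CPM of Egln3 and 44.4 CPM of Ero1a, with group medians of 3.06 and 1.35 CPM. In Apoe-/-Mif-/- mice the log2 value over time was 5.69 ± 2.10 for Adm and -5.34 ± 2.18 for Ankrd37 (edgeR adjusted p = 0.256 and 0.293). Leaving out 1 library gave 0.85 to 6.3 for Adm and -7.72 to -3.98 for Ankrd37.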

How the data were processed

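The authors deposited whole-number counts per gene symbol, read as given. Per the submitters' processing notes, reads were trimmed with cutadapt 1.18 and Trim Galore 0.6.4 and aligned with STAR 2.5.2b to GRCm39, and the counting program is not given in the sources used here. The authors also deposited variance-stabilised values on a log2 scale for 9578 genes, used as an alternative. The test was the quasi-likelihood test of edgeR 4.0.16 under R 4.3.3 (TMM, filterByExpr with a minimum count of 10, Benjamini-Hochberg over 10634 genes) in 1 fit with a mean for each of 4 groups and 12 residual degrees of freedom. 1 row without a name (at most 0.00257% of a library) and 2 reporter rows were left out. Intervals are 95%, and log2 CPM used a prior count of 2. Alternatives were DESeq2 1.42.0, its size factors, library totals, no filter, limma 3.58.1, fewer groups and leaving out libraries. The scripts were tested on simulated data of 10634 genes, with 50 genes shifted at each size between the genotypes at 24 weeks. They recovered 0% of 4-fold, 36% of 16-fold, 46% of 64-fold and 78% of 256-fold shifts. A gene that did not pass is therefore not shown to be unchanged. All 10 genes were named, together with the 2 genes of smallest p per list and comparison, 1 of which is not reported here. Genes and lists were chosen with earlier results of these data known. Libraries came from separately named mice.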

Additional observations from a re-analysis of the deposited data

Results flagged for a closer look

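Of the 40 sets of 4 libraries formed by 10 genes and 4 groups, 6 held a library farther from the rest than a Dixon test at 95% allows. Chance flags about 1 in 20 groups if values are normally distributed. The test used CPM without logs, for which this was not checked, so 6 is not shown to exceed chance. Slc2a1 in the fourth Apoe-/-Mif-/- library after 24 weeks stood at 279 CPM, where the next was 79.2 CPM, and Hk2 in the same library at 244 CPM, where the next was 12.4 CPM. For Apoe-/- at 24 weeks it was library 1, where Hk2 stood at 269 CPM with the next at 51.3 CPM, Pgk1 at 307 CPM with the next at 86.6 CPM, and Pfkp at 16.7 CPM, below the next at 130 CPM. For Apoe-/- at 42 weeks it was library 4, where Ldha stood at 1503 CPM and the next at 628 CPM.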

How the results depend on the processing

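No paired analysis was possible because the labels give the libraries no replicate numbers. The precision of Hk2 is limited by 4 mice per group and by 2 to 33 Hk2 counts in the Apoe-/- libraries at 42 weeks. Of 49 log2 fold changes of the 10 genes, 335 of 374 values under the other settings kept their direction and their side of the threshold. 2 passed with DESeq2, both for Hk2 (4.28 for Mif deletion at 42 weeks and -3.99 for 42 against 24 weeks in Apoe-/-). The other 37 turned their sign, all for values of at most 0.97 in size, and the cause was not tested. DESeq2 size factors, with the test of edgeR or DESeq2, turned Pkm for Mif deletion at 42 weeks (0.03), Pfkp over time in Apoe-/- (0.08) and Gapdh over time in Apoe-/-Mif-/- (0.43). The deposited variance-stabilised values gave 0.05 for Pkm for Mif deletion at 42 weeks, 0.05 for Pgk1 over time in Apoe-/-, and -0.40 for Pfkp and 0.35 for Gapdh over time in Apoe-/-Mif-/-. Library totals alone gave -0.29 for Pgk1 and -0.06 for Ldha for Mif deletion at 42 weeks, -0.15 for Pkm and -0.27 for Ldha over time in Apoe-/-, and, over time in Apoe-/-Mif-/-, -0.31 for Hk1, -0.17 for Pfkp, -0.10 for Pgk1, -0.33 for Pkm and -0.39 for Ldha. limma voom gave 0.52 for Hk1 and 0.04 for Pgk1 for Mif deletion at 24 weeks, -0.08 for Pfkp and -0.25 for Pgk1 at 42 weeks, -0.19 for Ldha over time in Apoe-/- and -0.07 for Eno1 over time in both genotypes. Over time in Apoe-/-Mif-/- it gave -0.24 for Hk1, -0.94 for Pfkp, -0.40 for Pgk1, -0.02 for Pkm and -0.17 for Ldha. Without the filter Hk1 over time in Apoe-/-Mif-/- was -0.00. Without both libraries 1 and 4 of Apoe-/- at 24 weeks, a setting chosen after seeing the data, Mif deletion at 24 weeks gave 1.13 for Hk2, -0.25 for Pfkp, 0.17 for Aldoa and 0.17 for Pgk1, and 42 against 24 weeks in Apoe-/- gave 0.49 for Aldoa and 0.45 for Pgk1.

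Leaving out 1 library at a time turned 41 of 464 values. For Mif deletion at 24 weeks the range was -0.94 to 0.08 for Hk1, -3.34 to 1.04 for Hk2, -0.21 to 0.34 for Pfkp, -0.71 to 0.46 for Pgk1, -0.30 to 0.03 for Pkm and -0.19 to 0.29 for Ldha. At 42 weeks it was -0.17 to 1.40 for Pfkp, -0.61 to 0.92 for Pgk1, -0.45 to 0.28 for Pkm and -0.33 to 0.73 for Ldha. Over time in Apoe-/- it was -1.18 to 0.17 for Pfkp, -0.65 to 0.73 for Pgk1, -0.27 to 0.47 for Pkm and -0.47 to 0.23 for Ldha. Over time in Apoe-/-Mif-/- it was -0.51 to 0.69 for Hk1, -0.13 to 3.33 for Hk2, -0.51 to 0.50 for Pfkp, -0.27 to 0.21 for Gapdh, -0.34 to 1.18 for Pgk1, -0.06 to 0.41 for Pkm and -0.40 to 0.45 for Ldha, and over time in both genotypes -0.13 to 0.78 for Eno1. The interaction of Pck1 was 5.52 to 10.26 on leaving out 1 library, with adjusted p of 0.0153 to 0.209 (edgeR), 8.09 with library totals (0.073), 2.66 with limma voom (0.896) and 4.37 on the variance-stabilised values with limma (0.747), and it passed in DESeq2 (0.000337). Of the other named pathway values, 1 turned its sign, Pgam2 over time in Apoe-/-, to 0.97 without both libraries 1 and 4 of Apoe-/- at 24 weeks.

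The number of genes called depended on the tool. Mif deletion at 24 weeks had 5 calls, 0 with size factors, voom, the variance-stabilised values, the 2 groups alone or without libraries 1 and 4 of Apoe-/-, 117 without the filter, 207 in DESeq2 and 0 to 21 on leaving out 1 library. Mif deletion at 42 weeks had 0, with 25 for the 2 groups alone, 150 without the filter, 902 in DESeq2 and 0 to 1 on leaving out 1. The 42 against 24 weeks comparison had 0 calls in Apoe-/-, with 18 unfiltered and 372 in DESeq2. In Apoe-/-Mif-/- it had 13, with 22 by size factors, 4 by library totals, 419 unfiltered, 562 in DESeq2, 0 by voom or the variance-stabilised values and 0 to 33 on leaving out 1. Mif deletion over both durations had 0, with 141 unfiltered, 392 in DESeq2 and 0 to 1 on leaving out 1. Duration over both genotypes had 4, with 16 by size factors, 0 by library totals, voom or the variance-stabilised values, 368 unfiltered, 497 in DESeq2 and 0 to 26 on leaving out 1. The interaction had 73, with 18 by library totals, 426 unfiltered, 546 in DESeq2, 0 by voom or the variance-stabilised values and 0 to 124 on leaving out 1.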
